A study of Gasterosteus aculeatus with 227 samples.

Results

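Gills of female and male threespine stickleback were compared gene by gene, and the sections that follow describe which genes differed, with weight on genes outside the sex chromosomes. The threespine stickleback is a small fish in which females carry a pair of X chromosomes and males an X and a Y. The comparison used every gill library by its labelled sex, except 1 male library: 36 females and 35 males, 71 of the 72 gill libraries and of the 227 libraries of the series, which also holds brain and liver. The fish came from a natural population and received no treatment, and each library holds 1 tissue of 1 fish. The labels used here give no age, body size or breeding state for either sex. Libraries were made with the QuantSeq forward kit, which reads the 3′ end of polyadenylated transcripts, so that a gene gives about 1 fragment per transcript.

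The gill is the organ with which fish breathe, and in stickleback it also moves salt, acid and ammonia between blood and water. Its surface is a thin sheet of pavement cells with ionocytes and mucus cells, lying over pillar cells, cartilage, nerves and immune cells. Cortisol and prolactin act on fish gills to set salt transport, and the gill is also a site of immune defence, since its surface meets the water. In whole tissue, a lower level of a transcript can come from fewer cells of a type or from less RNA per cell, and these cannot be told apart here.

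The libraries carried the transcripts of gill. Among the ionocyte genes, cftr, the apical chloride channel, had a median of 78.5 counts per 1000000 (CPM) and slc12a2, the basolateral sodium, potassium and chloride carrier, had 260 CPM, and neither was at 0 in any library. The skin and gill keratin krt15 had a median of 4830 CPM. The total count per library ran from 6599953 to 28095335, with a median of 11768914 in females and 10234234 in males. Reads that fell in no gene came to a median of 10.7% in females and 11.1% in males, and the part of depth in the results was not tested. The library left out, male replicate 11, had 941 CPM over 422 Y genes that no female gill counted, where the other 35 males lay between 4066 and 6219 CPM.

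Of 25994 genes listed, 21940 had at least 1 count in both sexes, and 17465 of these passed the filter on low counts and were tested. At a Benjamini-Hochberg adjusted p under 0.05, the quasi-likelihood test of edgeR called 2090 of them sex-biased, or 12.0%. Autosomes, as placed by the gene table, held 1248 calls among 14887 tested genes, which is 8.38%. Among those autosomal calls 354 genes were higher in females (2.38% of those tested) and 894 were higher in males (6.01%). The autosomal differences were mostly small. The median fold of the called genes was 1.35 for those higher in females and 1.55 for those higher in males, and a fold of at least 2 was reached by 36 and 94 of them. Another 239 tested genes had counts in males alone and were set aside.

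The X held a different picture, with 581 of 660 tested genes higher in females (88.0%) and 4 higher in males (0.606%). Genes without a match in the gene table were divided more evenly, 130 of 1890 being higher in females (6.88%) and 120 in males (6.35%). Some of these carry a chromosome in their name. All 9 whose name gives chromosome 19, the sex chromosome pair of this species, were higher in females, against 2 of the 25 whose name gives another chromosome. Genes without a match are therefore not known to be autosomal.

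The autosomal gene with the largest female excess after LOC120827096, a gene without a name, was hhipl1, which encodes a protein related to the hedgehog-interacting protein. In females hhipl1 had a lowest level of 1.66 CPM, a median of 10.7 and a highest of 23.8, and in males it had 0.133, 0.920 and 3.07. The highest male lay below 35 of the 36 females, and the fitted excess was 11.1-fold (log2 fold change 3.48, SE 0.22, adjusted p 4.85e-24 by edgeR). The galanin receptor gene galr2b had a female median of 6.18 CPM and a male median of 0.939. Its log2 fold change was 2.53 (SE 0.29, adjusted p 1.69e-11 by edgeR), and 26 females exceeded every male. LOC120827096 itself had similar medians of 1.51 and 1.90 CPM in females and males, and its log2 fold change of 3.54 came from 9 females above all males, the highest at 255 CPM.

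The acid-sensing cation channel asic2 ran from 19.4 to 194 CPM in females with a median of 69.1, and from 4.01 to 47.4 CPM in males with a median of 13.6 (log2 fold change 2.20, SE 0.20, adjusted p 1.65e-15 by edgeR). The pleckstrin-domain gene plekho1a had medians of 2.09 and 0.409 CPM, and st8sia5, which adds sialic acid to gangliosides, had 267 and 45.9 CPM. For st8sia5 all 36 females lay above the male median, yet the highest male, at 339 CPM, reached well into the female range. The gene il12ba, which encodes the p40 chain of interleukin 12, had medians of 5.12 CPM in females and 0.823 in males and a log2 fold change of 1.83 (SE 0.28, adjusted p 1.62e-07 by edgeR).

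Among other female-biased autosomal genes, dldh was abundant and varied little within a sex. The gene dldh, for dihydrolipoamide dehydrogenase of the mitochondrial dehydrogenase complexes, ran from 191 to 333 CPM in females and from 80.2 to 150 CPM in males. All 36 females exceeded all 35 males, at a log2 fold change of 1.11 (SE 0.05, adjusted p 2.24e-30 by edgeR), and dldh was the 1 autosomal gene of which this was true. The kinase gene mast4 (medians of 95.7 and 38.1 CPM) and dnmt3bb.1, a DNA methyltransferase that sets new methylation marks (64.3 and 28.8 CPM), had log2 fold changes of 1.27 and 1.21. Further down were egflam, a matrix protein, at 0.93, ptprb, a phosphatase of vessel walls, at 1.16, and aldh1a2, which makes retinoic acid, at 0.70. Growth factor gene igf1 was higher in females by 0.78 (SE 0.18, adjusted p 0.00108 by edgeR), and vip, a vasodilator peptide of nerves, by 0.57. With the level of neuronal transcripts as a covariate vip had an edgeR adjusted p of 0.0551. Without the 5 males of high neuron level it had 0.0781, and both settings are described further on.

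**Figure D1:**
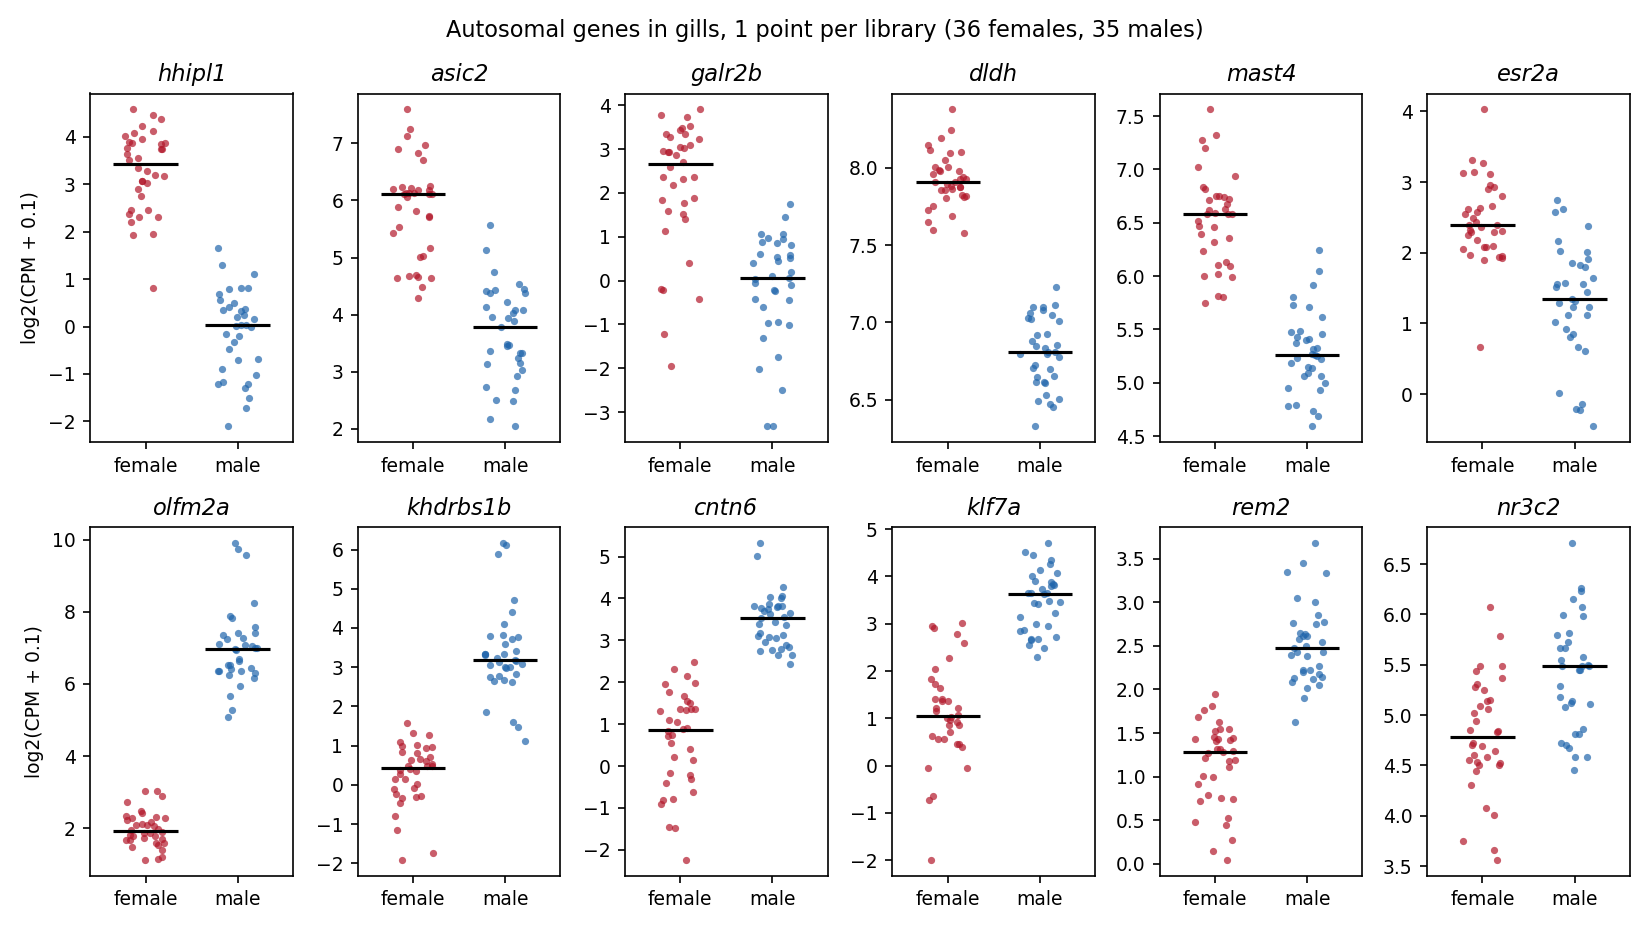
Level of 12 autosomal genes in each gill library, as log2(CPM + 0.1), for 36 females (red) and 35 males (blue); the bar is the median and each panel has its own axis. The sexes do not overlap for dldh and olfm2a, barely meet for hhipl1, rem2 and khdrbs1b, and overlap widely for nr3c2.

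In males the leading autosomal gene with a name was olfm2a, for the secreted glycoprotein olfactomedin 2. Females ranged from 2.08 to 8.15 CPM with a median of 3.70, and males from 33.5 to 961 CPM with a median of 125. Every male exceeded every female, the only autosomal gene counted in both sexes for which this held, at 45.1-fold (log2 fold change -5.50, SE 0.26, adjusted p 6.99e-31 by edgeR). The unnamed gene LOC120823430 had a still larger log2 fold change of -6.05, with medians of 1.21 CPM in females and 68.5 CPM in males and 28 males above all females. LOC120823430 had 672 counts over all females and 39197 over all males. The called genes nearest to the limit of at least 1 count in both sexes were LOC120822850, with 924 counts over all females and 5 over all males, and tnni1c, with 2514 and 49, neither of them matched to a chromosome. LOC120812612, outside the limit and placed on an autosome by the gene table, had 0 counts in females and 11382 in males. Of all listed genes, 56 so placed were counted in males alone. The autosomal class rests on the gene table, and whether it holds for each male-biased gene was not tested.

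The RNA-binding protein gene khdrbs1b had medians of 1.25 CPM in females and 9.06 in males, a log2 fold change of -3.50 (SE 0.26, adjusted p 1.27e-19 by edgeR), with 33 of 35 males above all females. Its male levels ran from 2.06 to 72 CPM, and male replicates 12, 16 and 30 were highest, at 72, 59.61 and 68.97 CPM. The same males were highest for olfm2a, at 960.7, 755.8 and 853.5 CPM, and whether the 2 genes vary together was not tested. The zinc-finger factor klf7a had medians of 1.98 and 12.3 CPM (log2 fold change -2.20), and mbd3b, of the nucleosome remodelling and deacetylase complex, had 45.4 and 94.4 CPM (-1.51). The splicing-associated gene acin1b followed with -1.46. The adhesion molecule cntn6, known from neurons, had medians of 1.72 and 11.6 CPM and -2.68, and the small GTPase rem2 had 2.33 and 5.46 CPM and -1.43, with 33 males above all females. The centrosome gene kiz (-1.12), the kinase gene camkk1a (-0.64) and the heparan sulfate epimerase gene glceb (-0.86) had smaller differences. For kiz and glceb all 35 males lay above the female median.

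The list with the largest share of female-biased genes was the pathway that makes cholesterol. Of 20 enzymes and helpers of this pathway 18 were tested, 15 were higher in females and 0 were higher in males. The share called was 83.3%, beside 12.0% over all genes. The median log2 fold change was 0.60 where the median over all genes tested was 0.01. The list was put together after the values had been seen, so the count describes it and does not test it. The 15 run from the first committed steps to the last. Those making mevalonate and isoprenoids were hmgcs1 (0.60), mvk (0.53), mvda (0.52), idi1 (0.69), fdps (0.61) and fdft1 (0.48). Those turning squalene into sterol were sqlea (0.68), lss (0.69), msmo1 (0.81), nsdhl (0.48), hsd17b7 (0.47), tm7sf2 (0.69), ebp (0.85), dhcr7 (0.86) and the scaffold erg28 (0.68). The remaining members, acat2, cyp51 and lbr, had log2 fold changes of 0.35, 0.32 and 0.10 and did not pass the test.

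Single enzymes of this pathway overlapped between the sexes. The most abundant, msmo1, a sterol demethylase, ran from 66.3 to 539 CPM in females with a median of 144, and from 33.1 to 255 CPM in males with a median of 86.3 (SE 0.15, adjusted p 1.05e-05 by edgeR). The last enzyme, dhcr7, had medians of 91.4 and 53.1 CPM (SE 0.17, adjusted p 7.18e-05 by edgeR), and lanosterol synthase, lss, had 14.8 and 9.56 CPM (SE 0.12, adjusted p 4.56e-06 by edgeR). In each of these, 32 of 36 females lay above the male median. Summed over the 18 genes, the level ran from 311 to 1640 CPM in females with a median of 636, and from 240 to 893 CPM in males with a median of 388.

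Genes that sense and carry sterol held fewer calls. Of 13 tested, 4 were higher in females and 0 in males (30.8% called, beside 12.0% over all genes). They were tmem97, a sterol-responsive membrane protein (0.76), insig1, which holds back the sterol sensor (0.36), the LDL receptor gene ldlrb (0.35) and the exporter abca1b (0.32). The calls of insig1 and ldlrb were lost without the library in which each was highest, female replicates 14 and 19, with edgeR adjusted p-values of 0.0828 and 0.0786. With the level of neuronal transcripts as a covariate 1 gene of the list was called. Without the 5 males of high neuron level 2 were, and both settings are described further on. Under these settings abca1b had edgeR adjusted p-values of 0.0916 and 0.0604, ldlrb 0.458 and 0.169, and insig1 0.0416 and 0.0372. The 1 gene called with the covariate was thus insig1, and tmem97 was not called with it. The regulators srebf1 and srebf2 had log2 fold changes of 0.11 and 0.04 and did not pass. This list, too, was chosen after the values had been seen.

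Of 122 cell division genes tested, 16 were higher in females and 2 in males, at a median log2 fold change of 0.12. Of the members 84 lay above 0. The share called was 14.8%, beside 12.0% over all genes, which include the X. On autosomes 14 of 117 members were higher in females and 2 in males, beside 2.38% and 6.01% of all autosomal genes tested. The spindle checkpoint kinase ttk had medians of 10.5 CPM in females and 7.70 in males (log2 fold change 0.47, SE 0.10, adjusted p 0.000231 by edgeR), and 33 of 36 females lay above the male median. The condensin subunits smc2 (0.44) and ncaph (0.43), the spindle protein hmmr (0.46), the mitotic kinases plk1 (0.43) and aurkb (0.37) and the factor foxm1 (0.39), which drives mitotic genes, also passed. Without female replicate 7, in which it was highest, aurkb had an edgeR adjusted p of 0.0503. With the level of neuronal transcripts as a covariate, described further on, 4 autosomal genes of this list were higher in females, where 14 were without it.

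Of 77 collagen and matrix genes, 13 were higher in females and 1 in males, 18.2% beside 12.0% over all genes, at a median log2 fold change of 0.19. On autosomes 11 of 68 members were higher in females and 1 in males, beside 2.38% and 6.01% of all autosomal genes tested. With the neuronal covariate 15 autosomal members were higher in females, and with the replicate number as a block, given at the end, 0 were. Fibrillar and beaded collagens passed, with col1a2 at 0.61, col5a2a at 0.39, col6a1 at 0.53 and col6a2 at 0.54, as did the matrix metalloproteinase mmp2 (0.38) and the matricellular gene postna (0.45). The 1 gene higher in males was col4a6 of basement membranes, at -0.28. Female replicate 24 was the highest library for each of these female-biased genes. Without it col6a1 and col6a2 kept their calls, while col1a2, col5a2a, mmp2 and postna had edgeR adjusted p-values of 0.104, 0.0623, 0.136 and 0.0629. Of 52 keratin and junction genes 7 were higher in females and 0 in males, 13.5% beside 12.0% over all genes. Of the 7, 2 were on the X and 4 among the 42 autosomal members. Of all autosomal genes tested 2.38% were higher in females. Among the 4 autosomal calls of the list were the desmosomal cadherin dsc2l (0.48), the claudin cldn11a (0.42) and krt15 (0.48). The call of krt15 was lost without female replicate 9 (adjusted p 0.069 by edgeR). With the neuronal covariate 2 autosomal genes of the list were called, and dsc2l and krt15 had edgeR adjusted p-values of 0.0638 and 0.0967.

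The clock list held 4 calls among 28 genes (14.3%, beside 12.0% over all genes). On autosomes, where 2.38% of all genes tested were higher in females, the list had 24 members and all 4 calls. All 4 were higher in females. They comprised 3 genes of the PAR bZIP family, output factors of the circadian clock, namely tefa (0.29), tefb (0.58) and dbpb (0.39), and the nuclear receptor nr1d4a (0.59), a repressor of clock genes. In females nr1d4a ran from 8.43 to 37.3 CPM with a median of 17.2, and in males from 2.57 to 22.0 CPM with a median of 12.3 (SE 0.12, adjusted p 8.9e-05 by edgeR). The core genes clockb, per1b and npas2 had log2 fold changes of 0.01, 0.03 and 0.13 and did not pass. The labels used here give no hour of sampling, and its part in these differences was not tested.

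Stress and early-response genes were divided. Among 78 tested, 6 were higher in females and 8 in males (17.9% called, beside 12.0% over all genes), with 38 members above 0 and 40 below. In females tsc22d3, a gene induced by glucocorticoid hormones, had medians of 239 CPM against 147 in males (log2 fold change 0.53, SE 0.15, adjusted p 0.00806 by edgeR), ddit4, an inhibitor of growth signalling induced by stress, had 67.2 against 32.0 CPM (0.89), and the epithelial factor klf5b had 72.8 against 52.8 CPM (0.47). The call of ddit4 was lost with the neuronal covariate (adjusted p 0.0758 by edgeR) and without the 5 males of high neuron level (0.0516). In males fosb, a subunit of the AP-1 factor, had 12.2 against 6.74 CPM (-1.26, SE 0.22, adjusted p 6.64e-06 by edgeR), with 16 males above all females. Of 39 proteasome genes 5 were higher in females and 0 in males (12.8% called, beside 12.0% over all genes), of which 2 are on the X. The 3 autosomal ones, among them psmb7 (0.39), came from 35 autosomal members. Of all autosomal genes tested 2.38% were higher in females. With the neuronal covariate 1 autosomal proteasome gene was called. Of 31 aminoacyl-tRNA synthetases, a list chosen after the values had been seen, 7 were higher in females and 0 in males (22.6%), 5 of them autosomal, among them eprs1 (0.42) and tars1 (0.27), and 1 autosomal gene was called with the covariate.

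Of 46 hormone receptors 36 were tested, 3 were higher in females and 5 in males (22.2% called, beside 12.0% over all genes). The pair of estrogen receptor beta genes differed in opposite directions. The gene esr2a ran from 1.49 to 16.2 CPM in females with a median of 5.16, and from 0.630 to 6.64 CPM in males with a median of 2.45, a log2 fold change of 1.10 (SE 0.17, adjusted p 1.5e-07 by edgeR), with 35 of 36 females above the male median. Its paralog esr2b had medians of 9.75 CPM in females and 14.5 in males, a log2 fold change of -0.39 (SE 0.12, adjusted p 0.0143 by edgeR). The third nuclear estrogen receptor, esr1, had -0.44 and did not pass, and neither did the androgen receptor ar at 0.02.

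Receptors of salt and calcium hormones were among those higher in males. The mineralocorticoid receptor nr3c2, which binds cortisol in fish, ran from 11.7 to 67.1 CPM in females with a median of 27.4, and from 21.9 to 105 CPM in males with a median of 44.7 (log2 fold change -0.61, SE 0.13, adjusted p 0.000299 by edgeR). The parathyroid hormone receptor pth1r (-0.72), the calcitonin receptor calcr (-0.58) and the thyrotropin receptor tshr (-0.82) were higher in males too. With the neuronal level as a covariate nr3c2 and esr2b kept their calls, and pth1r, calcr and tshr had edgeR adjusted p-values of 0.155, 0.259 and 0.217. In females the membrane progestin receptor paqr5b (0.47) and the X gene avpr1aa, a vasotocin receptor (0.95), were higher. With the same covariate esr2a and avpr1aa were called higher in females, and paqr5b was not called. The glucocorticoid receptor nr3c1 (-0.07), both prolactin receptors, prlra (-0.02) and prlrb (-0.03), and thrb for thyroid hormone (0.03) did not pass. The inhibin subunit gene inha, a hormone gene of low level, had medians of 0.603 CPM in females and 1.22 in males (-1.35).

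Ion and acid-base transport, the gill's own task, had a share of calls near that of all genes. Of 94 genes tested, 5 were higher in females and 4 in males, a share of 9.57% beside 12.0% over all genes, and the median log2 fold change was 0.03. The ionocyte genes called were the X genes cftr (0.81) and ca12, a carbonic anhydrase (1.23). On autosomes, the chloride transporter clcn3 (0.23) and the water and glycerol channel aqp3a (0.43) were higher in females, and aqp3a had an edgeR adjusted p of 0.0519 without female replicate 9. Of the 4 genes higher in males, atp1a3a (-0.75), slc12a5a (-0.62) and slc8a3 (-0.59) are the sodium pump subunit, the chloride carrier and the sodium and calcium exchanger best known from neurons. None of these 3 passed with the neuronal level as a covariate, with edgeR adjusted p-values of 0.555, 0.357 and 0.133.

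In the T cell list 2 of 16 genes were higher in males and 0 in females (12.5%, beside 12.0% over all genes), and 14 lay below 0. The 2 were among 15 autosomal members, where 6.01% of all autosomal genes tested were higher in males. The coreceptor cd4-1 ran from 8.59 to 34.5 CPM in females with a median of 19.1, and from 11.8 to 60.3 CPM in males with a median of 24.4 (log2 fold change -0.54, SE 0.11, adjusted p 0.000244 by edgeR), and the costimulator cd28 had medians of 5.03 and 7.03 CPM (-0.70). The cytotoxic coreceptors cd8a (-0.05) and cd8b (-0.15) did not pass. The cytokine gene ifng1, for interferon gamma, was higher in males at -1.02, and it has no match in the gene table. Of the genes named after their values were seen, the CD40 ligand gene cd40lg had -0.55 and batf, an AP-1 family factor, -0.46, and cd40lg had an edgeR adjusted p of 0.129 with the neuronal covariate. In the B cell list 3 of 12 genes were higher in males and 1, an X gene, in females (33.3%, beside 12.0% over all genes). Those in males included prdm1c (-0.82) and irf4a (-0.43), factors of plasma cells, and irf4a had an edgeR adjusted p of 0.0651 with the covariate.

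The phagocyte list had 1 call among 26 genes (3.85%), the antigen presentation list 1 among 12 (8.33%) and the complement list 0 among 12. The share over all genes was 12.0%. Both calls were higher in females and not autosomal. The interferon list had 4 of 29 higher in females (13.8%), and its 1 autosomal call, isg15, rested on a single fish. In isg15 the medians were 1.61 CPM in females and 1.08 in males, female replicate 16 reached 60.4 CPM, and without that library the edgeR adjusted p was 0.344.

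Genes known from neurons were among those higher in males. In the list of general neuron and synapse markers, 8 of 45 tested genes were higher in males and 2 in females (22.2% called, beside 12.0% over all genes), and 36 lay below 0, at a median log2 fold change of -0.28. A further 4 lists were chosen after the values had been seen. Of 81 neurotransmitter receptors 29 were higher in males and 3 in females, and of 102 synaptic adhesion, scaffold and release genes 43 were higher in males and 8 in females. Of 67 voltage-gated ion channels 20 were higher in males and 1 in females, and of 36 transcription factors of the central nervous system 18 and 1. The shares called in these 4 lists ran from 31.3% to 52.8%, and since the lists were assembled on these values the shares describe them and test nothing. The medians of these lists lay between -0.52 and -0.38. Single genes included the GABA receptor subunit gabrb4, with medians of 8.13 CPM in females and 24.6 in males (log2 fold change -1.67, SE 0.22, adjusted p 1.28e-09 by edgeR), the GABA transporter slc6a11b (-2.04), the postsynaptic scaffold dlgap3 (-1.66), the growth cone protein dpysl3 (-1.36), neuropeptide Y, npy (-1.58), and nos1, the neuronal nitric oxide synthase (medians of 3.47 and 8.78 CPM).

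**Figure D2:**
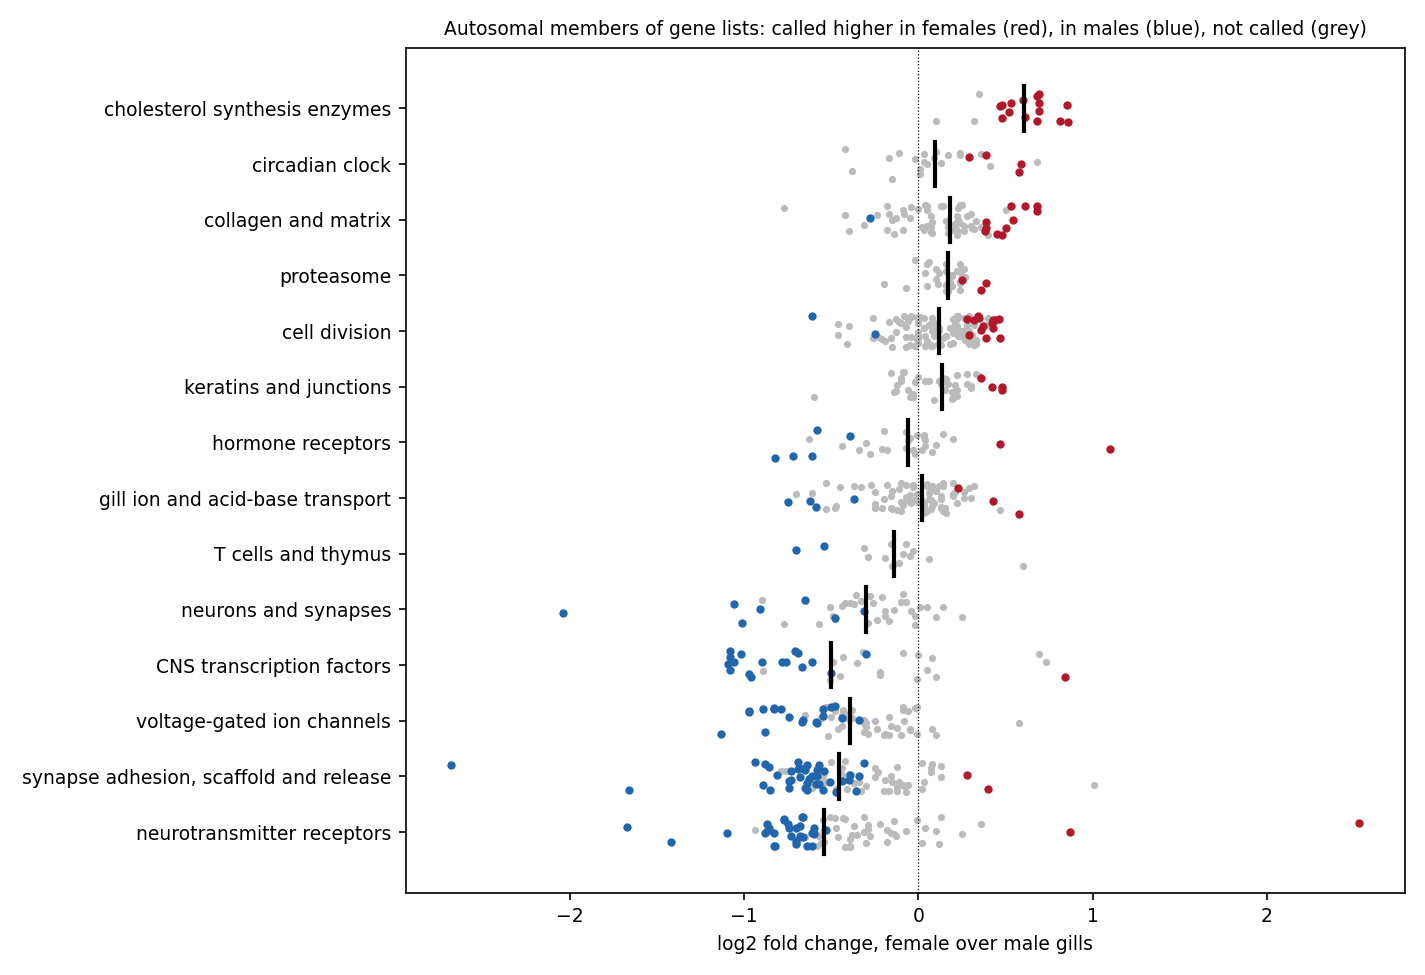
Log2 fold change, female over male, of the autosomal members of 14 gene lists; each point is 1 gene, the bar is the list median, and red or blue marks genes called higher in females or males at an adjusted p under 0.05. Cholesterol enzymes all lie above 0, while the neuronal lists are shifted below it, with medians between -0.54 and -0.30.

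This excess was carried unequally by the males. The summed level of the 40 autosomal neuron markers had a median of 303 CPM in females and 332 in males, close together beside the range within each sex. In 5 male libraries, replicates 6, 14, 16, 30 and 35, it was 664, 877, 586, 672 and 735 CPM, where the highest female had 482 and the highest other male 439. The same 5 libraries had 678 to 1670 CPM of neurotransmitter receptors, and 3 of them lay above the highest female, at 988 CPM, while the others lay within the range of the remaining libraries. Whether these gills held other nervous tissue or more nerve was not tested. The neuron markers elavl4 and snap25a were at 0 in no library, and gfap, of astrocytes, was at 0 in 18 of 71.

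**Figure D3:**
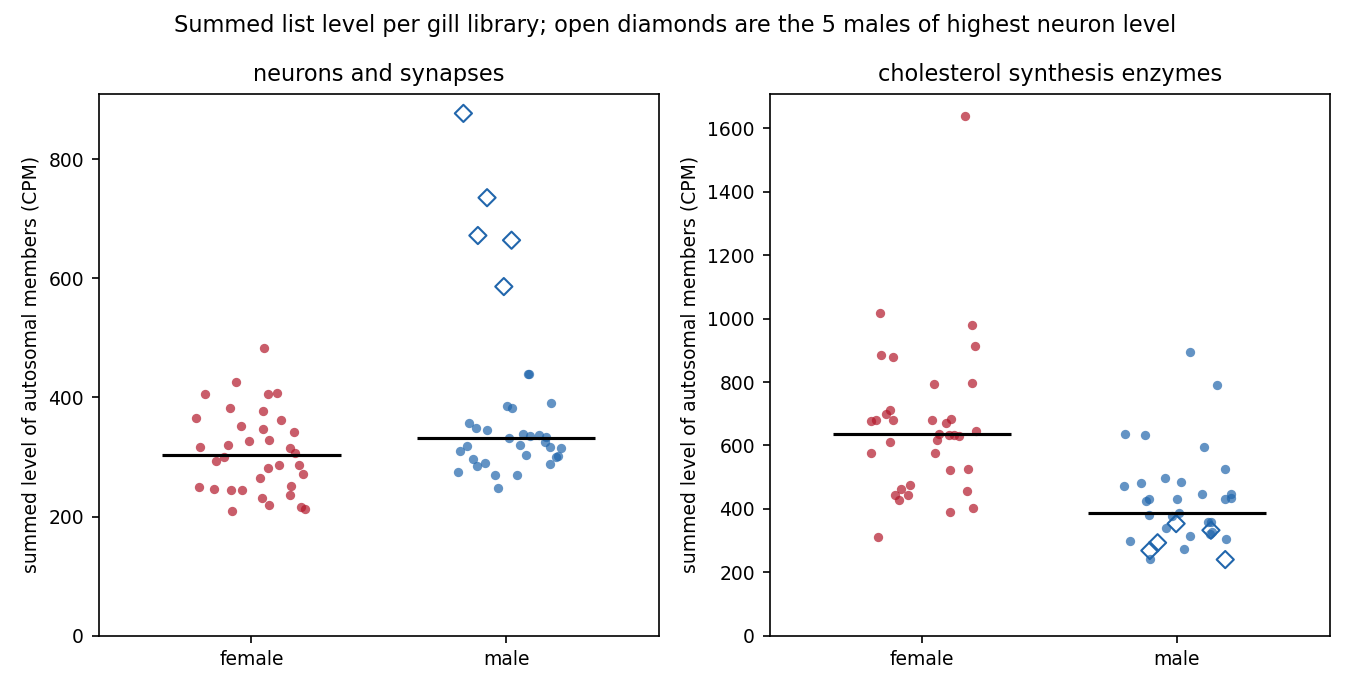
Summed level in CPM of the autosomal members of the neuron list and of the cholesterol list in each gill library, with 36 females in red, 35 males in blue and the median as a bar. Open diamonds are the 5 males whose neuron level lies above that of every female; in the cholesterol list they lie at 240 to 353 CPM, in the lower part of the male range.

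Male-biased calls fell with these libraries. Without the 5 males, 339 autosomal genes were higher in males and 257 in females (2.27% and 1.72% of those tested). With the neuron level as a covariate in all 71 libraries, the numbers were 212 and 210 (1.42% and 1.41%). Both settings were added after the data had been seen, and the first leaves out males alone by its definition. Of the 894 male-biased autosomal calls, 177 were made under both (19.8%), and of the 354 female-biased calls 149 were (42.1%). Among neurotransmitter receptors 10 and 6 autosomal genes were higher in males under the first and the second setting, where 29 were as reported, and among synaptic genes 7 and 3, where 38 were. Settings not built on the neuron list, given at the end, lowered these numbers too. With X and Y genes left out, 16 receptors and 19 synaptic genes were higher in males. With surrogate variables the numbers were 10 and 11, and with the replicate number as a block 13 and 15.

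Markers general to neurons and glia lay closer to 0 under both settings, which follows from how the settings were made, since the 5 males and the covariate were both taken from the summed level of the neuron list, which holds all the markers given next except gad2. The synaptic vesicle fusion gene snap25a went from a log2 fold change of -1.06 to -0.24 without the 5 males and -0.10 with the covariate. The glycine transporter slc6a5 went from -1.01 to -0.47 and -0.41, the myelin gene plp1b from -0.91 to -0.15 and -0.09, elavl4 from -0.65 to -0.36 and -0.24, and gad2, which makes GABA, from -0.57 to -0.35 and -0.26. None of these 5 passed the test under either setting. The factors neurod1 (-1.06) and zic1 (-0.96) rested on male replicate 14, with -0.18 and -0.21 without it.

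Other male-biased genes held their size. Without the 5 males and with the covariate, olfm2a had log2 fold changes of -5.18 and -5.13, khdrbs1b -3.16 and -3.11, cntn6 -2.69 and -2.60, klf7a -2.12 and -2.05, and rem2 -1.49 and -1.45. The neuronal genes gabrb4 (-1.39 and -1.29), dlgap3 (-1.53 and -1.45), npy (-1.63 and -1.58) and dpysl3 (-1.17 and -1.13) also passed under both, as did cd4-1 (-0.58 and -0.60) and fosb (-1.34 and -1.27). In the cholesterol list 12 genes were higher in females without the 5 males and 8 with the covariate, and all 18 genes lay above 0 under both, with list medians of 0.54 and 0.45.

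**Figure D4:**
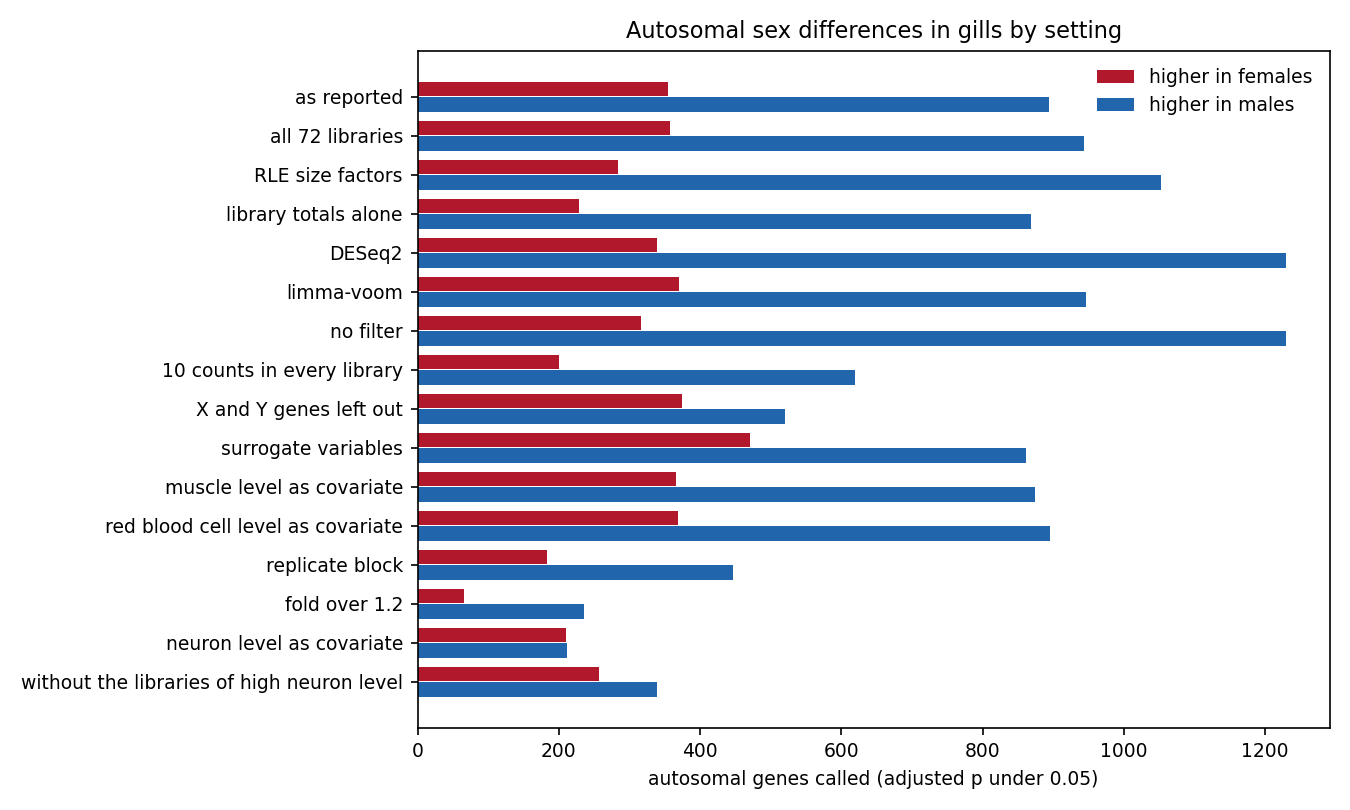
Number of autosomal genes, counted in both sexes, called higher in females (red) and in males (blue) under each setting, at an adjusted p under 0.05. Males have more calls under all settings shown, by 894 to 354 as reported and by 212 to 210 with the neuron level as a covariate.

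Lists of other tissues that can come along with a dissected gill were examined as well. Of 9 red blood cell genes 0 were called, and 17 of 20 liver proteins lay below 0, at a median log2 fold change of -0.68, with 0 calls. The liver list had a median summed level of 238 CPM in females and 380 in males, with 1172 and 1535 CPM in the highest fish. Striated muscle genes had 2 calls in females and 4 in males among 42 (14.3%, beside 12.0% over all genes). On autosomes 0 of 36 members were higher in females and 4 in males, beside 2.38% and 6.01% of all autosomal genes tested. With the neuronal covariate 4 genes of the list were higher in females, 2 of them autosomal, and 0 in males. The thyroid, which in fish lies as loose follicles near the gill arches, gave thyroglobulin, tg, a median of 77.6 CPM in females and 39.7 in males (log2 fold change 1.01, SE 0.35, adjusted p 0.039 by edgeR). It ranged from 0.331 to 462 CPM among females, and without the highest, replicate 24, its edgeR adjusted p was 0.0804. In the thyroid list 0 autosomal genes were higher in females with the neuronal covariate or without the 5 males of high neuron level. The same held with X and Y genes left out, with surrogate variables and with the replicate block.

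Outside the autosomes the largest female excess among X genes was that of LOC120809309, with medians of 13.7 CPM in females and 0.251 in males (log2 fold change 5.84, SE 0.28, adjusted p 1.68e-30 by edgeR), followed by LOC120809586 (4.17) and ndufa9a, of mitochondrial complex I (3.81). All 36 females exceeded all males in each. X genes higher in males included dld, a Delta ligand of Notch (-0.78), and the phosphatase dusp8a (-0.44), and the call of dusp8a was lost without male replicate 30 (adjusted p 0.0707 by edgeR). Among genes without a match were the troponin gene tnni1c (5.42), the epithelial factor ehf (3.70) and ldha, the lactate dehydrogenase of anaerobic metabolism, with medians of 92.6 CPM in females and 17.4 in males and no overlap (2.61, SE 0.19, adjusted p 2.95e-20 by edgeR). The sialyltransferase st3gal2 led in males at -3.69.

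Some large folds came from 1 fish. LOC120810713, at a log2 fold change of -2.68, had 288 CPM in male replicate 19 and medians of 0.664 and 1.17 CPM in females and males. Without that library the value was 0.11 (adjusted p 0.896 by edgeR). LOC120828282, at -2.03, depended in the same way on male replicate 21, and LOC120828116, at 1.59, on female replicate 35. They had 0.28 and 0.34 without it and did not pass.

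Whether the sex difference differed between gill and brain was tested by the sex-by-tissue interaction, with 38 female and 38 male brains, and 68 fish gave both tissues. It was called for 607 of 19753 genes (3.07%) in edgeR. For hhipl1 the log2 fold change was 3.48 in gills and 0.47 in brain, where it passed as well (adjusted p 0.022 by edgeR), and the tissues differed (adjusted p 2.01e-23 by edgeR). In asic2, galr2b and esr2a the brain values were 0.23, 0.02 and -0.05, with interaction adjusted p-values by edgeR of 5.52e-14, 1.61e-12 and 3.83e-05. In olfm2a, khdrbs1b and nr3c2 the brain had -1.48, -0.29 and 0.02, with 9.62e-33, 4.91e-23 and 0.00325. The cholesterol list had a median of -0.12 and 0 calls in brain, and 13 of its 18 genes had an interaction, each towards a larger female level in gills. The list was chosen on its gill values, which enter the interaction, so this count is a description. In contrast, dldh (0.90 in brain), il12ba (2.37), st8sia5 (1.55), dnmt3bb.1 (1.65) and LOC120823430 (-5.92) had no interaction called, and each was sex-biased in brain in the same direction.

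**Figure D5:**
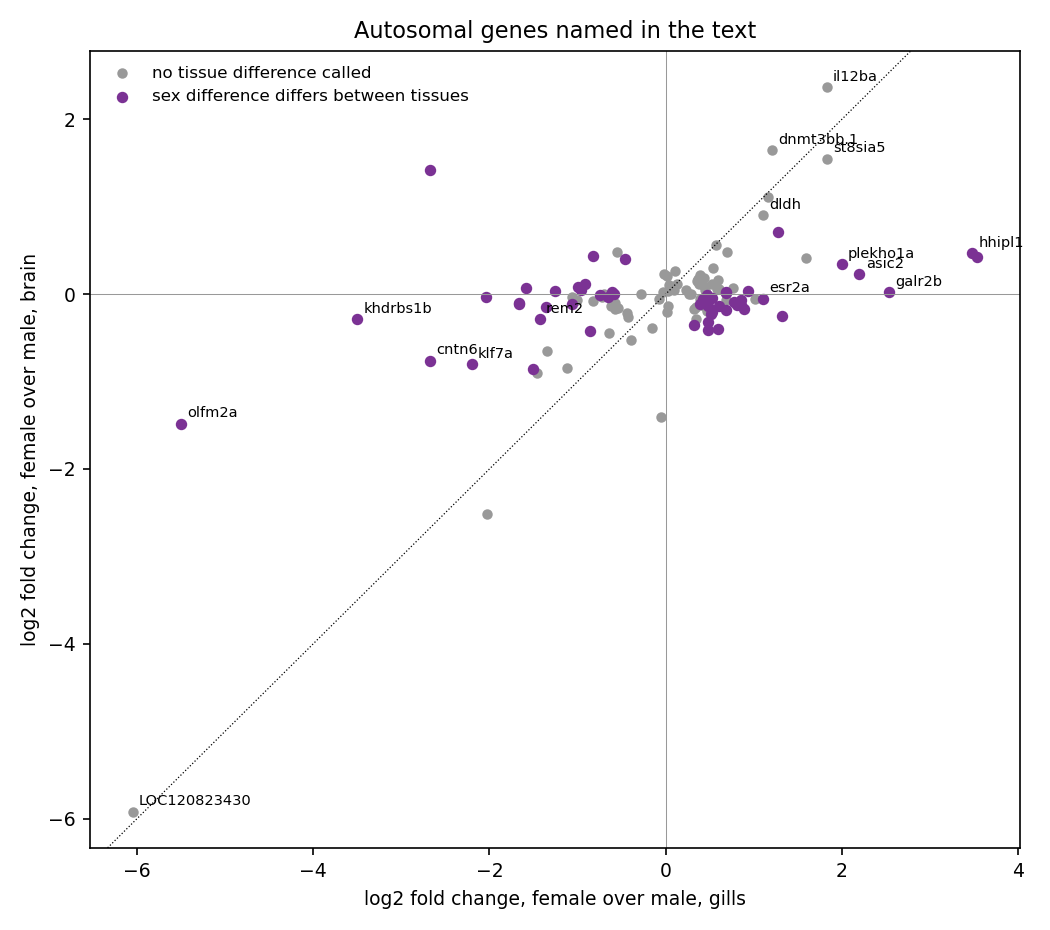
Log2 fold change, female over male, in gills (horizontal) and brain (vertical) for the autosomal genes named in the text; purple marks genes whose sex difference differed between the tissues at an adjusted p under 0.05 and the dotted line marks equal values. Values in brain are 0.47 for hhipl1, 0.02 for galr2b and -0.29 for khdrbs1b, nearer to 0 than in gills, while il12ba, dnmt3bb.1 and st8sia5 lie near the dotted line.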

How the data were processed

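RNA was measured in gills, brain and liver of wild female and male stickleback by 3′ end sequencing. The files deposited by the authors hold raw counts of reads in each gene, 1 table for each of 3 tissues. Each column of the gill and brain tables was matched to a sample, and the libraries left out of the fits are named below. Per the submitters' processing notes the tools were fastp, STAR and HTSeq. Versions, genome build, annotation and strand setting are not given in the sources used here. Overlapping and near-identical genes, X and Y copies included, are therefore uncertain. Summary lines that name no gene were dropped: reads in no feature made up 11% ± 0.658 and ambiguous reads 3.83% ± 0.368 of gill reads (SD, n = 72). Of the gene IDs 19268 matched a RefSeq symbol (assembly fGasAcu3.hap1.1) and 1745 a gene number, which gave names and the chromosome class only.

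Counts were fitted with edgeR 4.0.16 in R 4.3.3 (TMM scaling, filterByExpr by sex, robust quasi-likelihood test with sex as the only term), and Benjamini-Hochberg adjustment ran over 17704 genes. Log2 fold changes are above 0 where females were higher. CPM are counts per 1000000 after TMM scaling. In data simulated from these libraries over 17704 genes, the test recovered 8% of genes changed 1.2-fold, 54% at 1.5-fold and 94% at 2-fold, with 3.05% false calls. The simulated counts were drawn for each gene apart, without outlying fish or differences in tissue content between libraries. The 3.05% therefore does not measure the false calls among the real genes. Alternatives, some with DESeq2 1.42.0, limma 3.58.1 and sva 3.50.0, are given at the end. Male replicate 11 was left out for its doubtful sex, and for the interaction also male brain replicate 12, of the same fish, and female brain replicate 8, which is shallow.

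Named genes were, among calls counted in both sexes, the 15 autosomal genes of largest fold with a mean of at least 1 CPM and the 10 of smallest p in each direction, the 3 of largest fold for X and unmatched genes, up to 4 per list, and each hormone receptor, of which not all are printed. Others, among them the genes of 7 added lists, were chosen after their values were seen. The members and the 30 first lists were chosen with earlier results of these data known. The labels do not say how fish were kept or sampled together, so p-values measure the spread between these fish.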

Additional observations from a re-analysis of the deposited data

Results flagged for a closer look

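The sex difference in gills departed from that in brain, by edgeR's interaction test at an adjusted p under 0.05, for 59 of the 139 genes named above, where the share over all genes tested was 607 of 19753 (3.07%). Most of the named genes were picked for their difference in gills, which enters the interaction, so the 59 are no evidence about the tissues at large. The values are the log2 fold change in gills less that in brain, with the fish of both tissues fitted as separate libraries. In 31 genes the female level was relatively higher in gills than in brain. The largest were LOC120827096 (3.09), hhipl1 (3.01), galr2b (2.51), asic2 (1.95), plekho1a (1.66), isg15 (1.58), esr2a (1.13) and ddit4 (1.06), of which isg15 depended on a single female library.

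The cholesterol enzymes formed a block among these genes, with hmgcs1 at 0.99, ebp at 0.97, dhcr7 at 0.93, msmo1 at 0.92, erg28 at 0.85, nsdhl at 0.80, mvda at 0.75, mvk at 0.74, fdps at 0.73, lss at 0.68, sqlea at 0.66, fdft1 at 0.61 and hsd17b7 at 0.55. The sterol exporter abca1b stood at 0.67. The others were egflam and krt15 at 0.88 each, igf1 at 0.85, tsc22d3 at 0.58, mast4 at 0.55, dsc2l at 0.53, col5a2a at 0.49, klf5b at 0.47 and eprs1 at 0.46.

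In 28 genes the male level was relatively higher in gills. The values were -4.09 for LOC120810713, which depended on a single male library, -4.00 for olfm2a, -3.65 for st3gal2, -3.18 for khdrbs1b, -2.04 for slc6a11b, -1.93 for cntn6 and for ifng1, -1.66 for npy, -1.57 for gabrb4, -1.55 for dlgap3, -1.40 for klf7a, -1.31 for fosb, -1.29 for tshr, -1.20 for dpysl3 and -1.14 for rem2. They were between -1.09 and -0.43 for the rest, with nos1 at -1.09, zic1 and plp1b at -1.06, snap25a at -0.97, batf at -0.86, dld at -0.85, atp1a3a at -0.75, dusp8a at -0.71, nr3c2 and mbd3b at -0.63, elavl4 at -0.62, slc8a3 at -0.60 and glceb at -0.43. The part of the 5 males of high neuron level in the neuronal values among these was not tested in the interaction.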

How the results depend on the processing

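The reported fit called 2090 genes counted in both sexes. The number called was 1328 with at least 10 counts in every library, and 1092 with X and Y genes and genes of 1 sex left out. It was 993 for a fold over 1.2, 1174 with the neuron level as a covariate and 1359 without the 5 males of high neuron level. Autosomal genes higher in females numbered 354 as reported and 228 with library totals alone. They numbered 200 with 10 counts in every library, 66 for a fold over 1.2 and 210 with the neuron covariate. Those higher in males numbered 894 as reported, 520 with X and Y genes left out and 235 for a fold over 1.2. They numbered 212 with the neuron covariate and 339 without the 5 males. These are all the calls of each setting, and some were not among those reported. With the neuron covariate 164 of the 354 and 183 of the 894 were called again. The female share of autosomal calls was 28.4%, against 41.9% with X and Y genes left out, 49.8% with the neuron covariate and 43.1% without the 5 males. The other alternatives were all 72 libraries, size factors of DESeq2, DESeq2's test, limma-voom, no filter, surrogate variables, and the muscle or red blood cell level as a covariate, and they gave counts within 1.5 times of those reported. The interaction with brain gave 607 calls in edgeR and 1097 in limma-voom with the fish as a block.

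With the replicate number as a block, 1366 genes were called, 184 autosomal ones higher in females and 447 in males. The numbers run within each sex in the order of the columns, and the labels name no pairs of fish. The deviations of same-numbered libraries correlated over 0.1 in 11 of 35 pairs, with a median of -0.0791. Libraries of unlike number were not compared, so these correlations do not decide on pairing. Directions turned for LOC120810713 in DESeq2 (0.12) and without its highest library (0.11), for LOC120828282 in DESeq2 (0.28), with the replicate block (0.22) and without its highest library (0.28), and for neurod1 and zic1 with the neuron covariate (0.07 and 0.08). Genes near 0 that were not called turned as well, with values of -0.05, -0.02, -0.01 or -0.00 for ar, -0.03, -0.02, -0.01 or -0.00 for clockb, -0.05 and -0.04 for per1b, 0.01 for prlra, 0.02 for prlrb, -0.00 for srebf1, and -0.02 and -0.00 for thrb, and among the genes not called nr3c1 passed with surrogate variables (-0.20). The cause of these changes was not tested, apart from the single library named for each gene in the text. Folds of 1.2 were mostly missed in simulated data at this depth and number of fish, so genes that did not pass may still differ by small folds. Other small differences did pass, with folds under 1.5 in 252 autosomal genes higher in females and 380 higher in males.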

Other observations

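In the lists of this paragraph the share of genes called ran from 7.14% to 30.0%, beside 12.0% over all genes. Higher in females and in males were 8 and 6 of 107 heat shock and chaperone genes (13.1%), 3 and 3 of 78 cytokine and chemokine genes, 3 and 3 of 32 oxygen and hypoxia genes (18.8%), and 2 and 2 of 35 steroid and bile enzymes. Of 27 cartilage and bone genes 2 were higher in females and 3 in males (18.5%), of 36 endothelium and pillar cell genes 1 and 3, of 28 mucus and goblet cell genes 1 and 1, of 12 tooth and scale mineral genes 0 and 1, and of 10 thyroid genes 2 and 1 (30.0%). All female calls of the cartilage and endothelium lists lay on the X, where 88.0% of tested genes were higher in females. Higher in females and in males on autosomes were 4 and 6 of 97 heat shock genes and 1 and 2 of 33 steroid genes. Thyroid genes had 1 and 1 of 9, cartilage genes 0 and 3 of 24 and endothelium genes 0 and 3 of 34. Over all autosomal genes tested the shares were 2.38% and 6.01%.

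The lists of respiratory chain genes and of ribosomal proteins held smaller shares of calls than the 12.0% over all genes. In females 2 of 76 nuclear genes of the respiratory chain, 4 of 71 mitochondrial ribosomal proteins and 3 of 78 cytosolic ribosomal proteins were higher, and 0 of each were higher in males (2.63%, 5.63% and 3.85% called). On the X, where 88.0% of tested genes were higher in females, lay 1 of the 2, 2 of the 4 and all 3 of these genes, and the autosomal calls were 1, 2 and 0. Of the respiratory chain genes 66 lay above 0, at a median log2 fold change of 0.12, and of the mitochondrial ribosomal proteins 55, at 0.07, beside a median of 0.01 over all genes.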
